A study of Mus musculus with 4 samples.

Results

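The 7 genes described here encode the receptors for the Fc part of IgG in the mouse and the adaptor chains through which these and many other receptors signal. They are *Fcer1g*, *Tyrobp*, *Fcgr1*, *Fcgr2b*, *Fcgr3*, *Fcgr4* and *Fcgrt*, chosen by name for their function and matched by symbol in all 4 libraries, and they are 7 of 31053 genes counted. Their levels were taken in natural killer (NK) cells, macrophages, neutrophils, B cells and innate-like T cells, each recognised by marker genes that do not include any of the 7.

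*Fcer1g* encodes the FcR gamma chain and *Tyrobp* encodes DAP12. Both are small transmembrane proteins with almost no outer part, and both carry an ITAM, a tyrosine motif that recruits the kinase Syk or Zap70 once phosphorylated. The activating receptors *Fcgr1* (CD64, which binds monomeric IgG with high affinity), *Fcgr3* (CD16) and *Fcgr4* (CD16-2) need the FcR gamma chain to reach the surface and to signal. *Fcgr2b* (CD32B) carries an inhibitory motif, the ITIM, in its own tail, recruits the phosphatase SHIP1 encoded by *Inpp5d*, and is the Fc gamma receptor of B cells. *Fcgrt* encodes the heavy chain of FcRn, which pairs with beta 2 microglobulin inside endothelial and other cells and returns IgG and albumin to the blood. In the liver, sinusoidal endothelial cells are known for *Fcgr2b*, Kupffer cells for the activating receptors, and NK cells for CD16 and both adaptors.

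The cells were liver mononuclear cells of C57BL/6 mice aged 8 to 10 weeks. Untreated mice gave the Naïve library. The other mice were injected with concanavalin A (ConA), a lectin that activates T cells and causes hepatitis, and then received vehicle (ConA+Veh), the dioxin TCDD (ConA+TCDD) or FICZ (ConA+FICZ), the last 2 being ligands of the aryl hydrocarbon receptor, and livers were taken 24 hours after ConA. No gene was deleted or added in any group. There was 1 library for each group, and how many mice it held is not given in the sources used here, so no test between groups was possible, and each interval below is a 95% interval that covers counting error only.

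The libraries held 1880 to 2779 cells and 5952445 to 19252211 unique molecular identifiers (UMIs, 1 per captured RNA molecule), and the median cell had 2161 UMIs in Naïve, 3984 in ConA+Veh, 3761.5 in ConA+TCDD and 3147 in ConA+FICZ. Of the barcodes, 90 cells in all carried one that another library also had. NK cells numbered 130, 210, 182 and 168, macrophages 15, 149, 19 and 143, neutrophils 23, 96, 36 and 252, B cells 1088, 830, 419 and 789, and innate-like T cells 64, 60, 34 and 58, in the order untreated, vehicle, TCDD, FICZ. Wherever 4 values follow each other below, they are in that order. Each class was gated on its own markers, so finding these in it was fixed in advance and does not check the class. In the macrophages, however, *Clec4f*, *Vsig4*, *Timd4* and *Marco*, the markers of resident Kupffer cells, had 0 UMIs in Naïve and ConA+FICZ and reached at most 16 UMIs in ConA+Veh and 2 UMIs in ConA+TCDD. The macrophage class was therefore carried by the other genes of its list, such as *C1qa*, *C1qb* and *C1qc*, and it was small in 2 of the 4 libraries. It was not cleared of monocyte markers, since cells with enough markers of both were counted as macrophages. The 10 monocyte markers summed to 3781, 3358, 4077 and 4158 CPM in this class, beside 7808, 7893, 4236 and 9394 CPM for the 12 macrophage markers.

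A level is the UMIs of the gene divided by the total UMIs of its class in a library, times 1000000 (CPM). It is not divided by gene length, since the assay tags the 5′ end of each transcript, and levels of different genes are not ranked against each other. In a sum over cells, fewer expressing cells and less RNA per cell cannot be told apart.

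*Fcgr2b*, *Fcgr4*, *Fcgr3* and *Fcer1g* lie in this order along chromosome 1, *Fcgr1* lies on chromosome 3, and *Tyrobp* and *Fcgrt* lie on chromosome 7 (GRCm38, GENCODE M21). *Fcgr2b* spans chr1:170958617-170976547 on the minus strand, *Fcgr4* chr1:171018920-171029761 on the plus strand, *Fcgr3* chr1:171051174-171064935 on the minus strand and *Fcer1g* chr1:171229572-171234365 on the minus strand. *Fcgr1* spans chr3:96282909-96293969 on the minus strand, *Tyrobp* chr7:30413760-30417585 on the plus strand and *Fcgrt* chr7:45092990-45103851 on the minus strand. *Fcgr2b* and *Fcgr3* share sequence: 136 of the 1733 stretches of 60 bases in *Fcgr3* transcripts, 7.85%, also occur in *Fcgr2b* transcripts, and molecules read there are uncertain between the pair. *Fcgr2b* overlaps the antisense gene *Gm38204* (at most 7 UMIs in a library) and *Fcgrt* overlaps the antisense gene *Gm45669* (at most 10 UMIs). Whether counting used strand is not given in the sources used here, so reads of each such pair cannot be told apart.

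Of the 7 genes, 6 had a promoter in the RefSeq table used (GRCm38.p6). The 150 bases before the outermost annotated start of 4 of them are shown, to set *Fcer1g*, found in myeloid and NK cells, and *Fcgr1* and *Fcgr4*, found in myeloid cells, beside *Fcgrt*, which followed another pattern of cells. They are written 5′ to 3′ on the strand of the gene, and capitals mark AGGAAG on either strand, a core that ETS family factors such as PU.1 can bind, and TTCNNNGAA, the core of STAT binding sites.
*Fcer1g*, chr1:171234366-171234515, minus strand: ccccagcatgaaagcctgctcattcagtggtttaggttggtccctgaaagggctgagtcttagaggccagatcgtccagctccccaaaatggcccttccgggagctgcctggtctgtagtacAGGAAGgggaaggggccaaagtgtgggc
*Fcgr1*, chr3:96293970-96294119, minus strand: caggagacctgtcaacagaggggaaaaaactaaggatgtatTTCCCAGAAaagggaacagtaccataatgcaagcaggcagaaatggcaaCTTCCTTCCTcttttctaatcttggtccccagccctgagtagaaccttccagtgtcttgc
*Fcgr4*, chr1:171018770-171018919, plus strand: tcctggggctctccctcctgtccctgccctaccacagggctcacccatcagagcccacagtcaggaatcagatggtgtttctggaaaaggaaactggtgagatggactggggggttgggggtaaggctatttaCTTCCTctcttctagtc
*Fcgrt*, chr7:45103852-45104001, minus strand: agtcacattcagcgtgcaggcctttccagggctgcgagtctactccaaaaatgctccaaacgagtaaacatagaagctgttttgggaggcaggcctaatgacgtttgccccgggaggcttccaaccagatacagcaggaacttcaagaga
In the 250 bases before the RefSeq start, AGGAAG was found for *Fcer1g*, *Fcgr1* (2 overlapping matches), *Fcgr3* and *Fcgr4* and not for *Fcgr2b* or *Fcgrt*, and 29.5% of all 32851 promoters held it. TTCNNNGAA was found for *Fcgr1* alone of the 6, against 7.02% of all promoters. These are matches of letters and not measured binding.

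The members fell into 3 patterns of cells. The 5 classes together held 48.6% to 70.0% of the UMIs of the adaptors, 57.3% to 87.5% of those of *Fcgr1*, *Fcgr2b* and *Fcgr4* outside ConA+TCDD, and at most 34.1% of those of *Fcgrt*. B cells alone held 50.3%, 65.2%, 70.2% and 58.7% of the *Fcgr2b* UMIs, and macrophages held 53.0% to 64.6% of the *Fcgr4* UMIs in the 4 libraries. Endothelial cells held the largest share of the *Fcgrt* UMIs in Naïve, 45.9%, and of the *Fcgr2b* UMIs there they held 34.1%, against 2.23% to 3.53% in the ConA libraries.

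**Figure D1:**
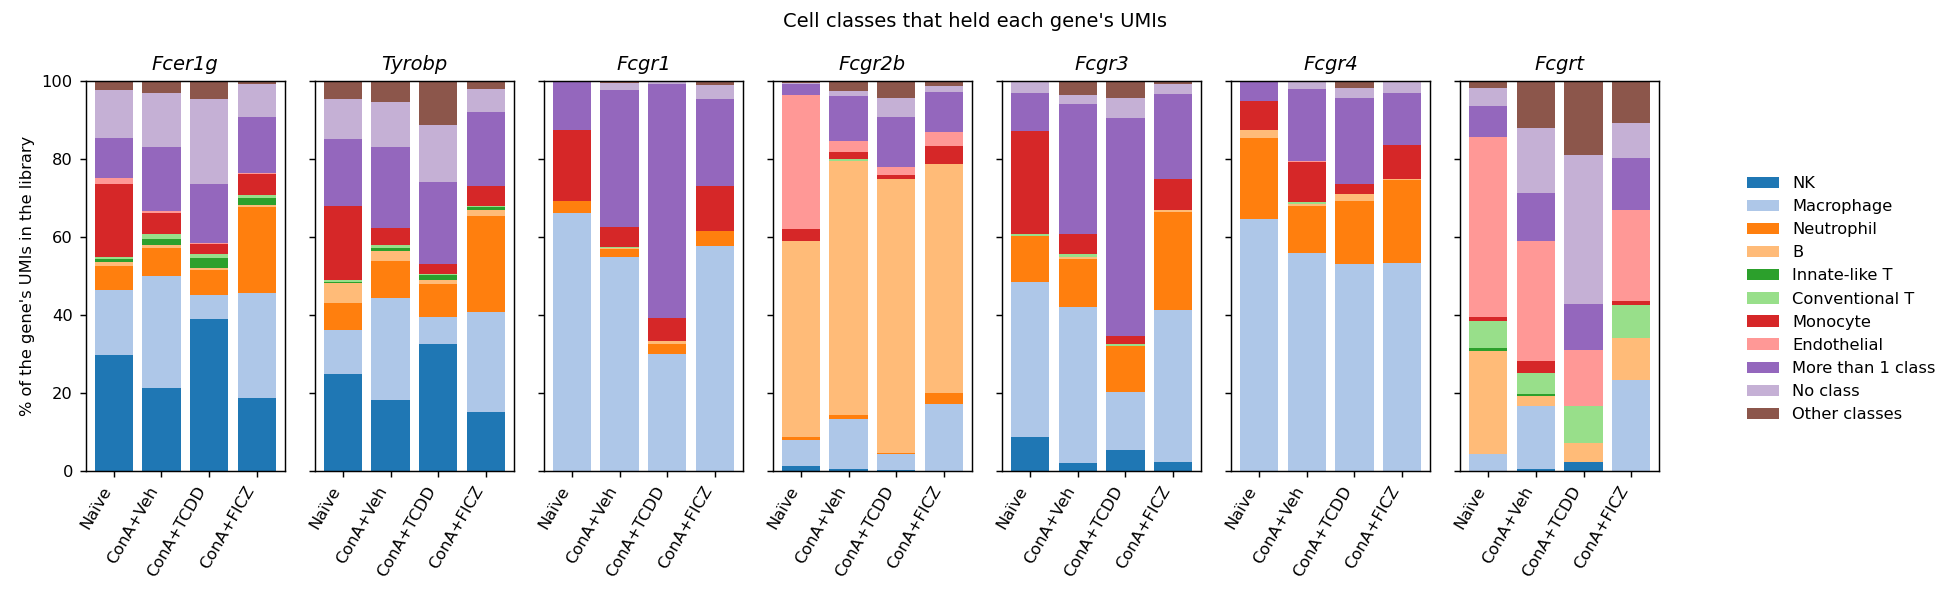
Percent of each gene's UMIs (vertical axis) that lay in each cell class, for the 4 libraries (horizontal axis). Macrophages lead for Fcgr4, with 53.0% to 64.6%, B cells lead for Fcgr2b, with 50.3% to 70.2%, and cells that passed the gates of more than 1 class hold 60% of Fcgr1 in ConA+TCDD.

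In ConA+TCDD, cells that met the markers of more than 1 class held 60% of the *Fcgr1* UMIs and 55.8% of the *Fcgr3* UMIs, against 35% and 33.5% in ConA+Veh. Most of these UMIs lay in cells with macrophage or monocyte markers that also had markers of granulocyte progenitors such as *Mpo* and *Elane*, which numbered 2, 48, 24 and 32. In these cells *Fcgr3* was at 139, 296, 342 and 274 CPM, *Fcgr1* at 139, 214, 104 and 172 CPM and *Fcgr4* at 13.9, 89.7, 22.6 and 57.3 CPM. They belong to no class below. In macrophages and monocytes, values for *Fcgr1* and *Fcgr3* therefore leave out a part of these genes' UMIs that was largest in ConA+TCDD.

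*Fcer1g* had like levels in NK cells, macrophages and neutrophils, *Tyrobp* was highest in neutrophils of these 3 classes, and both genes were far lower in B and T cells. *Fcer1g* was at 2749, 3843, 3787 and 3955 CPM in NK cells, at 2755, 3477, 2888 and 3013 CPM in macrophages and at 2918, 3697, 4725 and 3745 CPM in neutrophils. The ranges of these 3 classes over the libraries overlapped, so their order is not fixed by these data. Innate-like T cells came next, at 83.2, 358, 430.5 and 361 CPM, and B cells were lowest, at 8.28, 18.2, 10.6 and 12.8 CPM. Conventional T cells were taken as the background of RNA from other cells. Their gate counts *Cd8a* and *Cd8b1* among its markers, and whether CD8 T cells express some *Fcer1g* themselves was not tested. Conventional T cells had 9.96, 23.3, 9.81 and 14.1 CPM, so the B cell level of *Fcer1g* was at this background in every library. Conventional T cells without markers of other classes had 7.32, 8.57, 8.09 and 10.3 CPM.

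*Tyrobp* was at 3128, 3056, 2442 and 2957 CPM in NK cells, at 2502, 2895, 2520 and 2671 CPM in macrophages, and at 4623, 4520, 4685 and 3877 CPM in neutrophils. The neutrophil values lay above those of the other 2 classes in all 4 libraries. B cells held 62.5, 65.4, 23.6 and 35.9 CPM, above the 8.30, 12.6, 3.40 and 6.80 CPM of conventional T cells in each library. These B cell UMIs were spread thinly: in Naïve, 166 UMIs came from 138 cells, with at most 4 in a cell. In B cells with no UMI of NK, T, macrophage, neutrophil or endothelial markers, *Tyrobp* was still at 61.9, 53.3, 23.9 and 32.2 CPM.

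**Figure D2:**
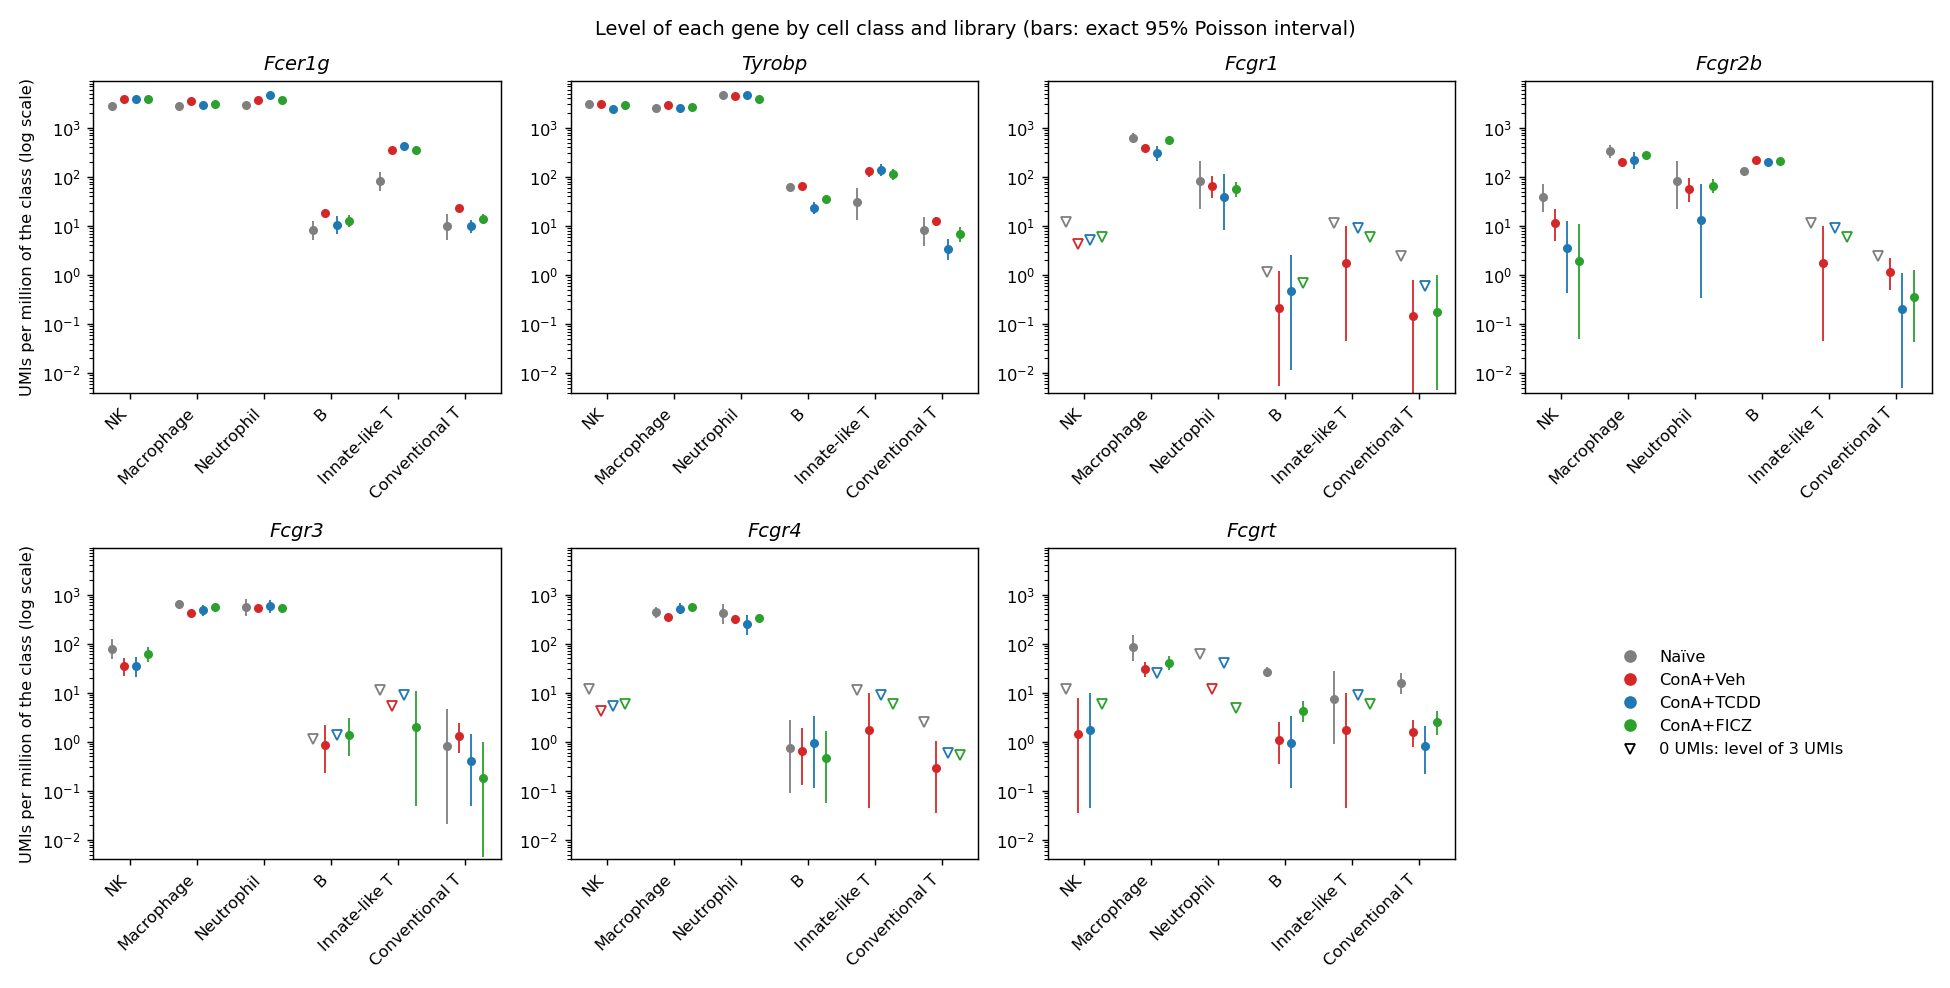
Level in CPM (vertical axis, log scale) of each gene in 6 cell classes (horizontal axis) for the 4 libraries, with exact 95% Poisson intervals. Open triangles mark classes with 0 UMIs, drawn at the level that 3 UMIs would give. Both adaptors lie at or above 2442 CPM in NK cells, macrophages and neutrophils of every library, and Fcgr1 and Fcgr4 have no UMI in NK cells.

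The activating receptors were found where *Fcer1g* was high, but not in all such cells. *Fcgr1* was at 632.5, 388, 301 and 559 CPM in macrophages and at 82.2, 64.2, 39.4 and 55.5 CPM in neutrophils. *Fcgr4* was at 436, 346.5, 519 and 557 CPM in macrophages and at 411, 313, 249 and 336 CPM in neutrophils. No UMI of either gene was seen in the NK cells of any library, where 0 counts allow at most 11.85, 4.27, 5.24 and 5.93 CPM. In B cells and innate-like T cells *Fcgr1*, *Fcgr3* and *Fcgr4* had at most 6 UMIs in a library, the level of conventional T cells.

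*Fcgr3*, the CD16 by which NK cells kill antibody-coated targets, was at 632.5, 415, 477 and 563 CPM in macrophages and at 555, 538, 577.5 and 544 CPM in neutrophils. These ranges overlapped. In NK cells it was at 79.0, 34.1, 34.9 and 61.2 CPM, from 20, 24, 20 and 31 UMIs, below the myeloid classes in every library and above the conventional T cells, which had at most 1.29 CPM. The NK cells that had *Fcgr3* had 1 to 4 UMIs of it each.

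*Fcgr2b*, the inhibitory receptor, was at 330, 199.5, 218 and 277 CPM in macrophages and at 134, 224, 204 and 209.5 CPM in B cells. Macrophages were above B cells in Naïve (330 [243, 439] against 134 [120, 148] CPM) and in ConA+FICZ (277 [245, 313] against 209.5 [196, 224] CPM), while in ConA+Veh and ConA+TCDD the intervals of the classes overlapped. Neutrophils had 82.2, 56.2, 13.1 and 66.6 CPM from 4, 14, 1 and 42 UMIs, and NK cells 39.5, 11.4, 3.49 and 1.98 CPM from 10, 8, 2 and 1 UMIs. Innate-like T cells had a single UMI in all.

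*Fcgrt* was the least counted of the 7 in these classes, with 184 UMIs in the 5 classes and 4 libraries. In macrophages it had 12, 32, 0 and 39 UMIs, or 84.3, 30.5, 0 and 41.1 CPM, and the 0 of ConA+TCDD allows up to 25.1 CPM. In B cells it had 71, 5, 2 and 18 UMIs, or 26.7, 1.07, 0.924 and 4.2 CPM. No UMI was seen in the neutrophils of any library. Endothelial cells, the class for which FcRn is best known, had 961, 225, 186 and 247 CPM.

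The first comparison asks what ConA hepatitis did to these genes, from Naïve to ConA+Veh. Of the 35 pairs of a member and a class, 21 reached the minimum of 20 UMIs summed over both libraries, and 6 of these differed at least 2-fold. *Fcer1g* and *Tyrobp* in innate-like T cells and *Fcer1g* in B cells were higher in ConA+Veh, while *Fcgr3* in NK cells and *Fcgrt* in macrophages and B cells were lower. By class, 1 of 3 members that passed in NK cells differed 2-fold, beside 22.5% of all genes that passed there (13.2% lower). In macrophages it was 1 of 7 beside 16.8% (7.02% lower), in neutrophils 0 of 5 beside 27.7%, in B cells 2 of 4 beside 27.3% (8.24% higher and 19.1% lower), and in innate-like T cells 2 of 2 beside 23.8% (8.14% higher). A member passes this minimum also through 1 library in which it is high, and with so few members the shares are read against those of all genes only as a description.

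In NK cells, *Fcer1g* was 0.48 [0.36, 0.61] higher on the log2 scale in ConA+Veh than in Naïve, a ratio of 1.40. *Tyrobp* differed by -0.03 [-0.15, 0.09]. *Fcgr3* fell by 1.21 on the log2 scale [-2.13, -0.28], from 20 UMIs in 130 cells to 24 UMIs in 210 deeper cells, and with no correction for depth the difference was -0.43. The higher *Fcer1g* was seen in NK cells with and without a UMI of *Eomes*, the factor of conventional NK cells: 2819 and 3316 CPM with it, and 2704 and 4512 CPM without it, in Naïve and ConA+Veh. *Eomes* is itself among the 8 markers of the NK gate. Seeing a UMI of it depends on depth, and the median NK cell had 1562 UMIs in Naïve and 2513.5 in ConA+Veh.

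In macrophages, the adaptors were slightly higher and the receptors lower in ConA+Veh than in Naïve. *Fcer1g* was 0.34 [0.19, 0.49] higher and *Tyrobp* 0.21 [0.05, 0.37] higher on the log2 scale, while *Fcgr1* differed by -0.70 [-1.04, -0.36], *Fcgr2b* by -0.73 [-1.19, -0.24], *Fcgr3* by -0.61 [-0.94, -0.26] and *Fcgr4* by -0.33 [-0.72, 0.08]. The median of all genes in this class was -0.03. *Fcgrt* fell by 1.47 [-2.46, -0.37], or by 0.91 when the cell with most of its UMIs was left out of each library. The Naïve side of these values rests on 15 cells. *Fcer1g* and *Tyrobp* turned to -0.10 and -0.22 with no depth correction, and *Fcer1g* to -0.01 without cells holding markers of other classes, so the direction of the adaptors depends on the processing. The 4 Fc gamma receptors were lower in ConA+Veh under all 11 alternatives. *Fcgrt* had 0 UMIs in the 4 Naïve macrophages and 14 UMIs in the 66 ConA+Veh macrophages without markers of other classes, so its direction cannot be read there.

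In neutrophils none of the 5 members that passed differed 2-fold. *Fcer1g* was 0.34 [0.09, 0.61] higher in ConA+Veh, beside a median of -0.22 over all neutrophil genes, but was at -0.13 with cells that passed 2 gates kept. *Tyrobp* differed by -0.03 [-0.24, 0.18], *Fcgr1* by -0.36 [-1.99, 1.68], *Fcgr3* by -0.04 [-0.65, 0.61] and *Fcgr4* by -0.39 [-1.12, 0.40], with 23 Naïve cells behind each. With cells that passed 2 gates kept, *Tyrobp* was at -0.56, *Fcgr3* at -0.73 and *Fcgr4* at -1.06. *Fcgr1* lay between -1.46 and 1.25 under the 11 alternatives.

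In B cells, *Fcgr2b* was 0.75 [0.57, 0.93] higher on the log2 scale in ConA+Veh, a ratio of 1.68, beside a median of -0.29 over all genes of the class. It was higher both in B cells with a UMI of the activation marker *Cd86*, at 199 against 285 CPM, and in those without, at 122 against 207 CPM. *Tyrobp* differed by 0.07 [-0.21, 0.35]. *Fcer1g* was 1.13 [0.44, 1.88] higher, 22 against 85 UMIs. In conventional T cells it was 1.23 [0.38, 2.21] higher, so with all cells this difference has the size of that of the background. Without cells holding markers of other classes, the conventional T cell ratio was 0.23, from 7.32 to 8.57 CPM. B cells then went from 3.94 to 8.79 CPM, on 10 and 31 UMIs.

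*Fcgrt* had the largest difference of any member in the 5 classes. In B cells it fell by 4.64 [-6.31, -3.35] on the log2 scale, from 71 UMIs in 62 of 1088 cells to 5 UMIs in 830 cells that were deeper. In conventional T cells it fell by 3.32 [-4.54, -2.18], from 19 to 11 UMIs, and in endothelial cells by 2.09 [-2.56, -1.64], from 124 to 61 UMIs. It was thus lower in B cells, conventional T cells and endothelial cells alike. No fall was seen in monocytes, with a log2 ratio of 1.13 [-1.10, 3.76] on 3 and 6 UMIs. Nor was it seen in conventional dendritic cells, which held 3 of 34802 UMIs in Naïve and 18 of 126638 in ConA+Veh. The whole libraries, which also differ in their mix of classes, held 45.4, 10.3, 3.48 and 10.4 CPM. The 12 listed hepatocyte genes, whose RNA can float free, summed to 106, 88.5, 2.31 and 301 CPM in B cells, with 12, 11, 3 and 12 detected. Their part in the result was not tested.

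**Figure D3:**
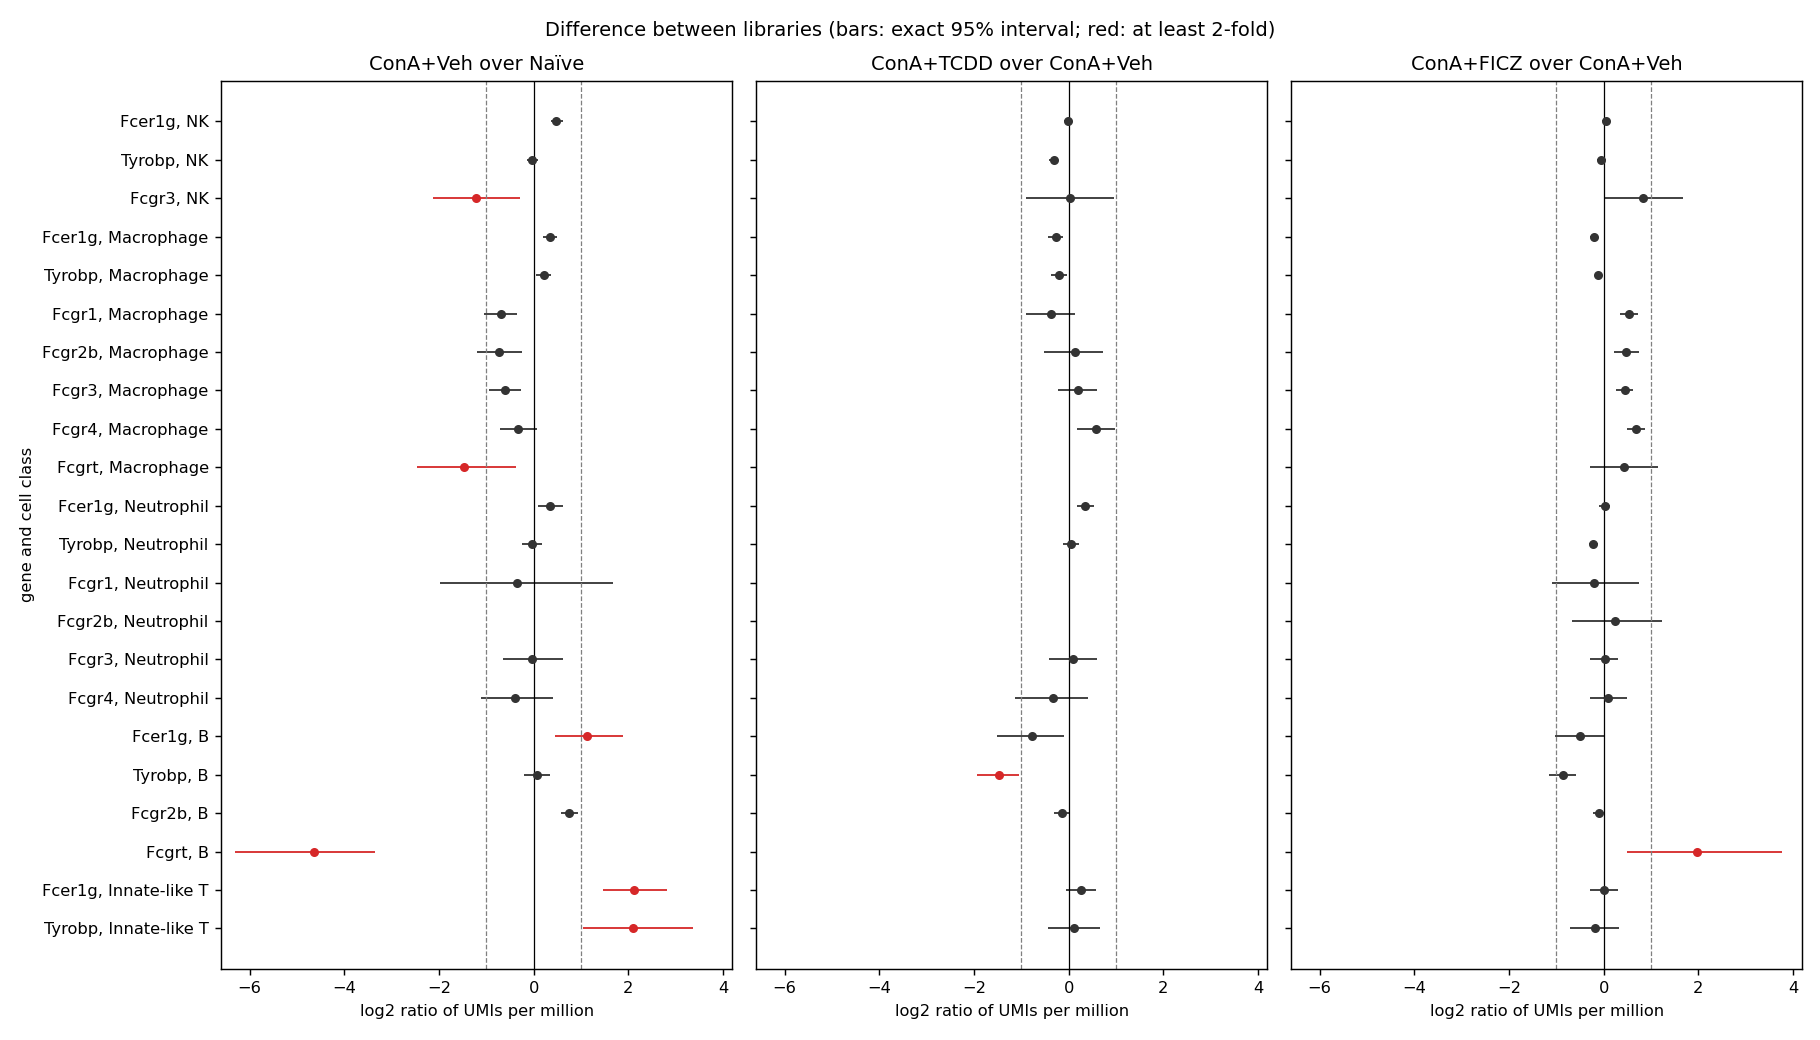
Difference of each member between libraries as log2 ratio of CPM (horizontal axes) with exact 95% intervals, in the 5 cell classes (vertical axis), for pairs with at least 20 UMIs and at least 1 UMI in both libraries. Red marks differences of at least 2-fold, which number 6 for ConA+Veh over Naïve, 1 for ConA+TCDD over ConA+Veh and 1 for ConA+FICZ over ConA+Veh.

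In innate-like T cells, *Fcer1g* was 2.11 [1.47, 2.81] higher on the log2 scale in ConA+Veh than in Naïve, from 22 UMIs in 6 of 64 cells to 202 UMIs in 20 of 60 cells. *Tyrobp* was 2.10 [1.04, 3.36] higher, from 8 UMIs in 3 cells to 73 UMIs in 12 cells. The 2 genes parted when cells with any UMI of NK, B, macrophage, neutrophil or endothelial markers were left out, other than *Klrb1c*, which innate-like T cells share with NK cells. *Fcer1g* then remained at 28.1, 164, 116 and 244 CPM, from 4, 35, 18 and 47 UMIs in 33, 25, 14 and 30 cells. *Tyrobp* was at 28.1, 23.5, 32.3 and 20.7 CPM, from 4, 5, 5 and 4 UMIs, and its log2 ratio of ConA+Veh to Naïve was -0.26.

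*Gzma*, an effector gene of NK and activated T cells, was at 18.9, 757, 990 and 670 CPM in the whole innate-like class, and its part in the difference was not tested. The summed level of the 8 NK markers was 401, 211, 236 and 208 CPM, and that of the 12 macrophage markers 0, 7.09, 2.99 and 1.96 CPM. The NK sum depends on the gate of the innate-like T cells, which counts *Klrb1c* as a marker and leaves out cells with *Ncr1*. Cells with a UMI of *Trdc*, the constant region of the gamma delta T cell receptor, numbered 12, 31, 14 and 26, and had *Fcer1g* at 387, 194, 361 and 439 CPM. Cells without one numbered 52, 29, 20 and 32 and had 50.3, 556, 461 and 325 CPM. The rise of *Fcer1g* from Naïve to ConA+Veh was thus seen in the cells without *Trdc*, and in those with it the intervals overlapped (185 to 711 CPM against 148 to 250 CPM). *Tyrobp* also went from 8.39 to 227 CPM in the cells without *Trdc*. This split was not repeated without cells holding markers of other classes. Seeing a *Trdc* UMI also depends on depth, and the median innate-like T cell had 3293.5 UMIs in Naïve and 7326 in ConA+Veh.

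The second comparison asks how TCDD changed the ConA response. Against ConA+Veh, 19 of 35 pairs had at least 20 UMIs, and 1 differed 2-fold: *Tyrobp* in B cells, which was lower in ConA+TCDD. That is 1 of 3 members that passed in B cells, beside 4.49% of all genes (2.80% lower). None differed 2-fold of 3 in NK cells, where 5.29% of genes did, of 6 in macrophages (17.5%), of 4 in neutrophils (10.7%) or of 2 in innate-like T cells (7.23%). A further macrophage member, *Fcgrt*, had 0 against 32 UMIs and could not be called either way, since only a bound can be given for it.

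*Tyrobp* in B cells fell by 1.47 [-1.93, -1.04] on the log2 scale, from 306 to 51 UMIs, and the share of B cells with a UMI, at equal depth, was 6.45% in ConA+Veh and 2.11% in ConA+TCDD. In B cells of ConA+Veh, 1 cell held 21 of the 306 UMIs. The difference was -1.15 in B cells without markers of other classes and lay between -1.91 and -1.15 under the 11 alternatives. In conventional T cells, *Tyrobp* also fell, by 1.89 [-2.73, -1.13], from 88 to 17 UMIs, so the background moved the same way at a lower level. *Tyrobp* was also lower in NK cells, with a log2 ratio of -0.32 [-0.42, -0.23], and in macrophages, with -0.20 [-0.38, -0.03], and lay within its counting error in neutrophils (0.05 [-0.12, 0.22]) and innate-like T cells (0.12 [-0.44, 0.67]).

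*Fcer1g* differed by -0.02 [-0.10, 0.06] in NK cells and by 0.27 [-0.05, 0.58] in innate-like T cells, was 0.35 [0.17, 0.53] higher in neutrophils and, like *Tyrobp*, lower in macrophages (-0.27 [-0.43, -0.11]) and B cells (-0.77 [-1.51, -0.10]). The macrophage value turned to 0.09 with 1 marker gene more for every class, and in macrophages without markers of other classes *Fcer1g* was at 3418 CPM in ConA+Veh and 3492 CPM in ConA+TCDD. The B cell value, at background level, turned to 0.02 with the mean over cells. When each class required 1 marker gene more, the *Fcer1g* ratio in innate-like T cells became -1.48 and that of *Tyrobp* -1.87, and without cells holding markers of other classes the ratio of *Fcer1g* was -0.50, so these values of the innate-like T cells depend on the gate.

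Of the receptors, *Fcgr4* was 0.58 [0.17, 0.98] higher in the 19 macrophages of ConA+TCDD, but the value was 0.06 with cells that passed 2 gates kept and 0.20 without the 1 cell holding most of its UMIs in each library. *Fcgr1* (-0.37 [-0.90, 0.13]), *Fcgr2b* (0.13 [-0.52, 0.72]) and *Fcgr3* (0.20 [-0.22, 0.60]) had intervals that held 0. Without cells holding markers of other classes, 14 macrophages of ConA+TCDD and 66 of ConA+Veh remained. There *Fcgr1* was at 446 against 355 CPM and *Fcgr2b* at 388 against 206 CPM. *Fcgr3* was then at 543 against 302 CPM and *Fcgr4* at 757 against 394 CPM, a log2 ratio of 0.94. Under the 11 alternatives *Fcgr1* lay between -0.74 and 0.33 and *Fcgr2b* between -0.32 and 1.28, so their directions depend on the processing. In B cells *Fcgr2b* differed by -0.14 [-0.30, 0.02], and in NK cells *Fcgr3* by 0.03 [-0.90, 0.95], an interval that spans nearly 2-fold in either direction.

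The third comparison sets ConA+FICZ against ConA+Veh. Of 22 pairs that passed, 1 differed 2-fold, *Fcgrt* in B cells. That is 1 of 4 in B cells, beside 4.25% of all genes (2.31% higher), 0 of 3 in NK cells beside 6.96%, 0 of 7 in macrophages beside 7.32%, 0 of 6 in neutrophils beside 16.8% and 0 of 2 in innate-like T cells beside 6.61%. *Fcgrt* in B cells was 1.97 [0.49, 3.76] higher in ConA+FICZ, on 18 against 5 UMIs. Each of the 18 UMIs came from its own cell. Conventional T cells held 2.50 CPM in ConA+FICZ with all cells, near the B cell level of 4.2 CPM. They are not a clear background for *Fcgrt*, since in Naïve they held 18.3 CPM even without cells holding markers of other classes. In ConA+FICZ without such cells, B cells held 4.59 [2.68, 7.36] CPM and conventional T cells 0.71 [0.086, 2.57] CPM. The 12 hepatocyte genes summed to 88.5 CPM in B cells of ConA+Veh and 301 CPM in those of ConA+FICZ, and their part was not tested.

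In macrophages, the 4 Fc gamma receptors were each higher in ConA+FICZ than in ConA+Veh, with 143 and 149 cells. *Fcgr1* was 0.53 [0.34, 0.72] higher on the log2 scale, *Fcgr2b* 0.48 [0.21, 0.74], *Fcgr3* 0.44 [0.25, 0.63] and *Fcgr4* 0.68 [0.49, 0.88], while *Fcer1g* differed by -0.21 [-0.28, -0.14] and *Tyrobp* by -0.12 [-0.19, -0.04]. The median of all genes in this class was 0.13. The direction of all 4 receptors held under each of the 11 alternatives, with values from 0.35 to 0.68, 0.23 to 0.66, 0.18 to 0.95 and 0.60 to 0.80 in the same order. The adaptors lay between -0.29 and 0.03. The summed level of the 12 macrophage markers was 7808, 7893, 4236 and 9394 CPM, *S100a8*, a gene of neutrophils and monocytes, was at 28.1, 543, 41.9 and 171 CPM in macrophages, and their part in these differences was not tested.

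These differences of ConA+TCDD and ConA+FICZ share the ConA+Veh library, so they are not independent of each other. Side by side, the macrophage values were -0.37 and 0.53 for *Fcgr1*, 0.13 and 0.48 for *Fcgr2b*, 0.20 and 0.44 for *Fcgr3*, and 0.58 and 0.68 for *Fcgr4*. The ConA+TCDD value of *Fcgr1* rests on 19 macrophages. It kept its direction under 10 of 11 alternatives and turned to 0.33 without cells holding markers of other classes. In NK cells they were 0.03 and 0.84 [0.03, 1.68] for *Fcgr3*. In B cells they were -1.47 and -0.86 [-1.15, -0.58] for *Tyrobp*, which was thus lower than ConA+Veh in both libraries. The background moved the same way in ConA+FICZ too, since conventional T cells had -0.89 [-1.48, -0.33] for *Tyrobp*, on 38 against 88 UMIs. With cells that passed 2 gates kept, the B cell value of ConA+FICZ was -0.31. In neutrophils, *Tyrobp* was 0.05 and -0.22 [-0.32, -0.12] and *Fcgr3* was 0.10 and 0.02 [-0.28, 0.31].

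The share of cells with at least 1 UMI, after each cell had been thinned to 1000 UMIs so that depth was equal, followed the levels. *Fcer1g* was seen in 88.35%, 94.8%, 92.8% and 97.9% of NK cells and in 3.23%, 23.3%, 26.5% and 25.9% of innate-like T cells, against 1.08%, 2.89%, 1.40% and 2.18% of conventional T cells. *Fcgr3* was seen in 12.6%, 3.14%, 4.22% and 8.28% of NK cells, with at most 0.181% of conventional T cells. The interval of Naïve NK cells (6.90% to 20.6%) lay above that of ConA+Veh (1.16% to 6.71%), with 103 and 191 cells deep enough. Before thinning, the median NK cell had 1562 UMIs in Naïve and 2513.5 UMIs in ConA+Veh.

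*Fcgr2b* was seen in 11.45%, 21.05%, 15% and 17.5% of B cells and in at most 0.545% of conventional T cells. The interval of Naïve B cells (9.59% to 13.5%) lay below that of ConA+Veh (18.2% to 24.1%). *Fcgrt* was seen in 2.93%, 0.132%, 0.263% and 0.664% of B cells, and in 2.16%, 0.361%, 0% and 0% of conventional T cells, and in each library the intervals of both classes overlapped.

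**Figure D4:**
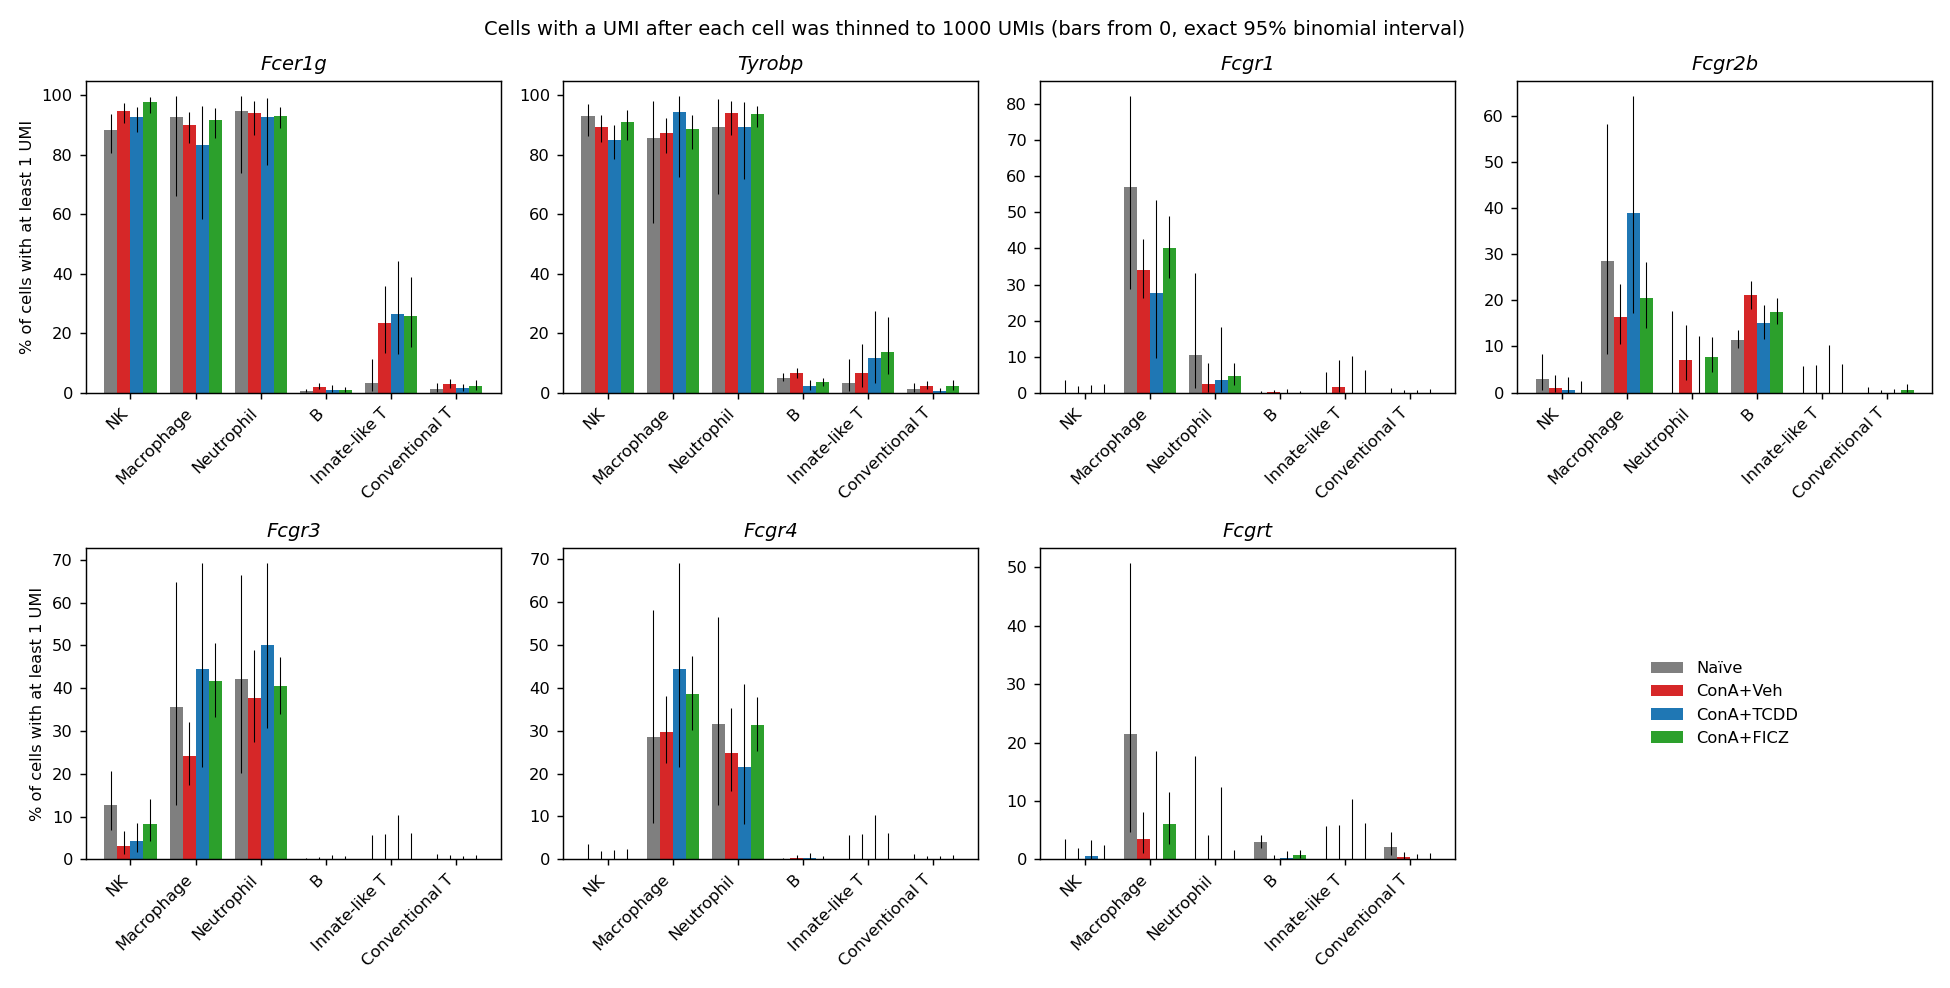
Percent of cells with at least 1 UMI of each gene (vertical axis, from 0) after thinning every cell to 1000 UMIs, in 6 cell classes (horizontal axis) and 4 libraries, with exact 95% binomial intervals. Fcer1g rises in innate-like T cells from 3.23% in Naïve to between 23.3% and 26.5% in the ConA libraries, while Fcgr3 in NK cells is highest in Naïve, at 12.6%.

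Outside the 5 classes, *Fcgr4* was at 42.9, 450, 34.4 and 500 CPM in monocytes, from 7, 67, 3 and 87 UMIs in 53, 34, 12 and 37 cells. Its log2 ratio of ConA+Veh to Naïve was 3.39 [2.27, 4.76], and 1.24 with gates applied at 1000 UMIs. Between ConA+Veh and ConA+TCDD it differed by -3.71 [-6.02, -2.10], and -0.94 with 1 marker gene more for every class, and the 3 UMIs of ConA+TCDD came from 1 cell. All 6 members that passed in monocytes were at least 2-fold lower in the 12 cells of ConA+TCDD than in ConA+Veh, beside 16.6% of all genes that passed there. With cells that passed 2 gates kept, 5 of these 6 were no longer 2-fold lower: *Fcer1g* was at -0.64, *Tyrobp* at -0.63 and *Fcgr1* at -0.79, and *Fcgr2b* and *Fcgr3* turned to 0.25 and 0.30. Of the *Fcer1g* UMIs in ConA+TCDD monocytes, 1 cell held 63.8%. From ConA+Veh to ConA+FICZ, monocytes differed by 1.19 [0.65, 1.76] for *Fcgr1*, 1.07 [0.43, 1.75] for *Fcgr2b* and 0.73 [0.25, 1.22] for *Fcgr3*. The values were 0.15 [-0.32, 0.64] for *Fcgr4*, -0.47 [-0.63, -0.31] for *Fcer1g* and -0.31 [-0.49, -0.13] for *Tyrobp*. In endothelial cells, *Fcgr2b* was at 1867, 166, 435 and 342 CPM, from 241, 45, 14 and 54 UMIs in 41, 67, 8 and 41 cells. It fell by 3.49 [-3.98, -3.03] from Naïve to ConA+Veh.

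The other genes of the pathway were taken from a list of 46: further Fc receptors, further adaptors, receptors that pair with the adaptors, downstream kinases, and inhibitory receptors and phosphatases. From Naïve to ConA+Veh, 19 passed in NK cells with 0 at least 2-fold higher and 2 lower, 28 in macrophages with 4 and 0, 20 in neutrophils with 1 and 3, 28 in B cells with 4 and 7, and 14 in innate-like T cells with 0 and 8. Of all genes that passed, 22.5%, 16.8%, 27.7%, 27.3% and 23.8% differed 2-fold in either direction in these classes, in the same order. *Hcst*, which encodes the adaptor DAP10 and is the neighbour of *Tyrobp* on chromosome 7, fell by 2.21 [-2.56, -1.87] in innate-like T cells, from 870 to 188 CPM, and by 1.18 [-1.44, -0.91] in NK cells, from 877 to 388 CPM. It thus went the other way from *Fcer1g* in both classes. *Klrc2*, an activating NK receptor that pairs with DAP12, fell by 1.62 [-2.17, -1.08] in NK cells.

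In B cells, *Fcer2a*, the low-affinity IgE receptor CD23, fell by 3.73 [-3.97, -3.50] on the log2 scale, from 479 to 36.1 CPM, where *Fcgr2b* was higher. *Pigr* (-2.32 [-3.18, -1.52]), the inhibitory *Pirb* (-2.06 [-2.77, -1.39]) and the activating *Pira2* (-2.04 [-3.15, -1.02]) were also lower there, on 12 to 64 UMIs. In innate-like T cells, *Fyn* (-1.90 [-2.50, -1.31]) and *Lcp2* (-1.41 [-1.98, -0.84]), listed as downstream kinases and adaptors, were lower. So was *Inpp5d* (-1.43 [-2.08, -0.79]), listed with the inhibitory receptors and phosphatases. In neutrophils, *Cd300lb* (-2.36 [-3.78, -0.93]) and *Syk* (-1.41 [-2.14, -0.66]), the kinase that binds phosphorylated ITAMs, were lower on 10 and 25 Naïve UMIs.

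From ConA+Veh to ConA+TCDD, 1 of 29 such genes that passed in macrophages was at least 2-fold higher and 6 were lower, beside 17.5% of all genes in either direction. The lower ones held *Trem2* (-2.95 [-8.28, -0.43]) and *Clec4n* (-2.19 [-5.26, -0.29]), whose products signal through DAP12 and the FcR gamma chain, and *Inpp5d* (-1.28 [-2.76, -0.12]). These rest on 1, 2 and 6 UMIs in ConA+TCDD. None of 19 in NK cells and none of 14 in innate-like T cells differed 2-fold, while 1 of 19 in neutrophils and 2 of 27 in B cells were lower, beside 5.29%, 7.23%, 10.7% and 4.49% of all genes in either direction. From ConA+Veh to ConA+FICZ, 1 of 30 in macrophages was higher, beside 7.32% of all genes in either direction, *Card9* (1.30 [0.44, 2.22]), and 1 lower, *Lat* (-3.50 [-6.62, -1.50], on 2 against 25 UMIs). *Lat* was also lower in B cells (-1.29 [-2.25, -0.40]), and encodes an adaptor known best from T cells. The 3 CD3 genes summed to 63 UMIs in macrophages of ConA+Veh and 3 UMIs in those of ConA+FICZ, and their part in the *Lat* difference was not tested.

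Over the 20 points given by 5 classes and 4 libraries, the genes most like each member were found by Pearson's r of log2(CPM + 10), among 7450 genes with at least 200 UMIs. The points share libraries, and most of the likeness is that between classes. *Fcer1g* was most like *Anxa2* (r = 0.971), *Tyrobp* (r = 0.95) and *Efhd2* (r = 0.944), and *Tyrobp* was most like *Fcer1g*, *Itgam* (r = 0.925) and *Lilr4b* (r = 0.915). *Fcgr1* was most like *Tgfbi* (r = 0.984), *Csf1r* (r = 0.983, a marker of the monocyte gate) and *Ecm1* (r = 0.979), and *Fcgr3* was most like *Ifi204* (r = 0.982), *Lair1* (r = 0.971) and *Fes* (r = 0.969). *Fcgr4* was most like *Lrrc25* (r = 0.996), *Lyz2* (r = 0.992) and *Gm36161* (r = 0.992), and *Fcgr2b* was most like *Ctsh* (r = 0.949), *Unc93b1* (r = 0.931) and *Ctsz* (r = 0.916). *Fcgrt*, with 184 UMIs, was below the minimum and was not compared.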

How the data were processed

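Liver mononuclear cells were isolated by enzymatic dissociation and a Percoll gradient, and libraries were made with the 10x Genomics 5′ kit. Per the labels, reads were processed with Cell Ranger 3.0.2 on mm10, and the authors deposited unnormalized UMI counts for each gene in each cell. The smallest cells held 500 or 501 UMIs. No doublet caller was run. The members, gene lists and gates were chosen with earlier results of these data known.

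Each cell was assigned to a class by the number of marker genes detected: at least 2 of 8 for NK cells (with no CD3 gene), 3 of 12 for macrophages, 3 of 9 for neutrophils, 2 of 7 for B cells, and 2 of 8 with at least 2 of 3 CD3 genes and no *Ncr1* for innate-like T cells. Cells that met several gates (35, 134, 55 and 97) or none (308, 514, 557 and 419) were left out. The exception was a cell with enough markers of both macrophages and monocytes, which was kept as a macrophage. UMIs of a class were summed in each library and scaled to its total. Intervals are exact Poisson for levels, exact binomial for ratios and Clopper-Pearson for shares, all at 95%, and where a gene had no UMI, 3 UMIs were taken as its upper limit. A pair counted as 2-fold different needed at least 20 UMIs in both libraries together. With 1 library per group no p-value was computed. For shares, cells were thinned to 1000 UMIs with seed 1, and shallower cells were left out.

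The text names every member in every class, and of the other pathway genes up to 4 per class and comparison that differed 2-fold with an interval free of 0. Alternatives for the scaling, the gates, low-quality and high-UMI cells and the minimum of UMIs were tried. Further alternatives were chosen after seeing the data. They left out cells with markers of other classes, the cell with most UMIs of a member, or cells with a barcode of another library, or kept cells that passed 2 gates. The splits by a UMI of *Trdc*, *Cd86* or *Eomes* were also chosen after seeing the data. The ratios were also run on simulated Poisson counts with 4-fold changes set in 200 genes. Such counts have no spread between cells, so this run does not cover a cell that holds many of a gene's UMIs. Promoters were read from RefSeq and positions from GENCODE M21. The tools were pandas 2.3.3, scipy 1.17.1, numpy 2.4.6 and matplotlib 3.10.9 under Python 3.11.15.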

Additional observations from a re-analysis of the deposited data

Results flagged for a closer look

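Pairs of cell classes differed in the direction of the same comparison, with intervals on opposite sides of 0. From Naïve to ConA+Veh, *Fcgr2b* was higher in B cells, with a log2 ratio of 0.75, and lower in macrophages, with -0.73. From ConA+Veh to ConA+TCDD, *Fcer1g* was higher in neutrophils, with 0.35, and lower in macrophages, with -0.27, and in B cells, with -0.77, where its level was that of the background. These directions of *Fcer1g* did not hold throughout: the macrophage value turned to 0.09 with 1 marker gene more for every class, and the B cell value to 0.02 with the mean over cells. Each class had 1 library per group, so the difference between classes was not tested. The macrophages numbered 15 in Naïve and 19 in ConA+TCDD.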

How the results depend on the processing

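The number of members at least 2-fold different was 6 for ConA+Veh over Naïve, 1 for ConA+TCDD over ConA+Veh and 1 for ConA+FICZ over ConA+Veh. In the same order it became 2, 1 and 0 with a minimum of 100 UMIs and 13, 8 and 9 with a minimum of 1 UMI, where members with few counts entered. The first count became 11 without depth correction. The second became 2 with the mean over cells, 5 with 1 marker gene more for every class and 2 with gates applied at 1000 UMIs, and the third became 2 with the last. The 3 counts became 10, 4 and 3 when cells that passed 2 gates were kept in both classes, 1 of the alternatives chosen after seeing the data. The cause was not tested. *Tyrobp* in innate-like T cells, higher in ConA+Veh, turned to -0.14 with gates at 1000 UMIs and to -0.26 without cells holding other markers. In ConA+TCDD over ConA+Veh, *Fcgr2b* in endothelial cells turned to -0.24 with the mean over cells, *Fcgr2b* in monocytes to 0.48 with 1 marker more and to 0.25 with 2-gate cells kept, and *Fcgr3* in monocytes to 0.12 with gates at 1000 UMIs and to 0.30 with 2-gate cells kept. Of 62 log2 ratios in the 5 classes (61 for the mean over cells and without depth correction), 20 left their counting interval without depth correction, 15 with 2-gate cells kept, 14 with gates at 1000 UMIs and 13 without cells holding other markers (each with 1 more that turned direction), 8 with the mean over cells, 6 with 1 marker more and at most 4 under the other 5 settings. No paired analysis was possible because each group had 1 library and the labels give no replicate numbers. Depth limits *Fcgrt* and the receptors outside myeloid cells.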
